A study of Rattus norvegicus with 16 samples.

Results

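The genes described here are 6 caspases (Casp1, Casp2, Casp6, Casp8, Casp9 and Casp12), the caspase activator Apaf1 and the caspase inhibitor Xiap, compared between hearts of rats with polygenic cardiac hypertrophy and hearts of control rats. A member was any row of the deposited table to which the platform annotation gives 1 of these gene symbols and no other, and of several probe sets for a gene the brightest stands for it, meaning the highest mean over all 16 arrays. All 8 genes were found, on 9 probe sets, among 14324 genes named in this way. Xiap had 2 probe sets and each other gene had 1. The groups were 4 males and 4 females of the Hypertrophic Heart Rat (HHR), whose hearts are labelled hypertrophic, and 4 males and 4 females of the Normal Heart Rat (NHR), whose hearts are labelled normal. All pups were 2 days old, with no treatment named, and heart RNA of 1 animal went onto each Affymetrix Rat Gene ST array without pooling. The sources name the tissue both as whole heart and as ventricles. They name no litter or batch of processing, so that litter and strain cannot be told apart, and the p-values measure the spread between these animals.

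Caspases are proteases that cut proteins after aspartate residues and are made as inactive precursors. Initiator caspases are switched on by large protein platforms, namely Casp8 at death receptors, Casp9 on the apoptosome that Apaf1 builds with cytochrome c, and Casp2 on the PIDDosome. They then cut executioner caspases, whereas Casp1 and its relatives act in inflammation, and Xiap binds and blocks active caspases. In heart muscle these proteins are studied both in cell death and in the remodelling of developing myocytes.

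RefSeq promoters of build GRCr8, running from 250 bases before to 50 bases after the annotated start, were at hand for 6 of the 8 genes (not for Casp8 and Xiap). Those of the inflammatory group, Casp12 and Casp1, were low in G and C, at 41.0% and 43.3%, while Casp2, Casp6, Casp9 and Apaf1 had 63.0 to 73.7%. The 3 genes that differed between the strains and Casp1, the family neighbour of Casp12, are printed 5′ to 3′, with capitals marking matches to the interferon response element (2 copies of GAAA with 2 bases of any kind between them), GGGCGG (the GC box) or TTTCCCGC (an E2F site) on either strand.
Casp12, chr8:10926938-10927237, + strand: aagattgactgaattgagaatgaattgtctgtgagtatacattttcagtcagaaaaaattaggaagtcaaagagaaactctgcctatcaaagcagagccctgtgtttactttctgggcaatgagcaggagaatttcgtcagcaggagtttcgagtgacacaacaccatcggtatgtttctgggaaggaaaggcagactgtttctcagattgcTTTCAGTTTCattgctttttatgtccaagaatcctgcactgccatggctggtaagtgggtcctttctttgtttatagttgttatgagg
Casp1, chr8:10872580-10872879, + strand: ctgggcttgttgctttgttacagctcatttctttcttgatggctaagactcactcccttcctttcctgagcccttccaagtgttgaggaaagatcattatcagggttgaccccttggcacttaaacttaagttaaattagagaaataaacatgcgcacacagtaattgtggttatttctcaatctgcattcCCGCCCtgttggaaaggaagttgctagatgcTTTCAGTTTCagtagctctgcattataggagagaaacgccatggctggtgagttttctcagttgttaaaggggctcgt
Casp2, chr4:72116107-72116406, + strand: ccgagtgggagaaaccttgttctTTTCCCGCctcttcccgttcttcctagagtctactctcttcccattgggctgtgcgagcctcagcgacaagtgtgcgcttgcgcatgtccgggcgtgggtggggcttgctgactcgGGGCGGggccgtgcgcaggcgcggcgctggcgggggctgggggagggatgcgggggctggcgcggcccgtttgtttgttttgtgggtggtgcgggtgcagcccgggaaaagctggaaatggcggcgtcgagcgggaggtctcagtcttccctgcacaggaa
Casp6, chr2:221140136-221140435, + strand: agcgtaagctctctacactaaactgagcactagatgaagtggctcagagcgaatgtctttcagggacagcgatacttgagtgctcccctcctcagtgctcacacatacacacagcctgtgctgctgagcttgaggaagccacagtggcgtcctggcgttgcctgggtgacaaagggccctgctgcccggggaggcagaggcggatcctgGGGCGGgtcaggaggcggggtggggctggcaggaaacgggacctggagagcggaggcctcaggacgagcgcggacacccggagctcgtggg
The interferon element matched on the reverse strand in Casp12 at -38 to -29 and in Casp1 at -28 to -19, counted from the annotated start, and in 0 of the other 4 promoters. It occurred in 3.92% of 33469 RefSeq promoters of the same length. The stretch around it, tgctttcagtttca, was the longest shared by the promoters of Casp12 and Casp1, at 14 bases. GC boxes occurred in 33.1% of all promoters and in 5 members, with 3 matches each in Casp9 and Apaf1, 1 each in Casp1, Casp2 and Casp6 and 0 in Casp12. The E2F site (0.974% of all promoters) matched in Casp2, at -227 to -220. No match of one motif overlapped a match of another. The motifs were chosen after the sequences were seen, and the matches describe letters only.

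Array medians lay between 7.19 and 7.28 (log2), and any 2 arrays correlated at 0.990 or higher. The cardiomyocyte markers looked up to check the tissue had mean log2 levels from 12.37 (Ryr2) to 14.12 (Myl3). On the main component of the variation within groups, NHR females 3 and 4 and NHR male 4 scored 14.4, 15.1 and 22.6, while NHR females 1 and 2 and NHR males 1 and 2 scored from -16.9 to -11.1. The 8 HHR arrays, from -3.72 to 7.48, and NHR male 3, at 1.74, lay between, so the component spreads the NHR arrays to both ends. The first 3 are called the high-scoring and the next 4 the low-scoring NHR arrays. For the members and the called genes of the caspase pathway, results that rest on either are given with and without them. Strain differences of other neighbouring genes, cell type markers and the genes most like Casp12 are given over all arrays only. Both sets were picked by their scores in these same data. Leaving out the low-scoring arrays was moreover not planned but added after the data were seen.

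The comparison of strains asked which of these genes differ in RNA level between hearts of the hypertrophic and the control strain. Casp12 and Casp6 were higher in HHR, Casp2 was lower, and the other 5 genes did not pass the test. Differences were tested with limma over all 27342 probe sets, with a Benjamini-Hochberg adjusted p below 0.05 as the threshold. The 2 members called higher stand beside 9.64% of all probe sets called higher, and the 1 called lower beside 11.0% called lower. Of either direction, 3 of 8 genes were called, beside 20.7% of all probe sets and 23.1% of the 14324 named genes. Nothing particular to the group is read from so small a count. The median log2 difference of the 8 members was 0.05, against -0.02 over all 14324 named genes. In bulk tissue, fewer cells of a type and less RNA per cell cannot be told apart. A sequence variant between the strains under a probe can also change its signal, which was not tested.

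**Figure D1:**
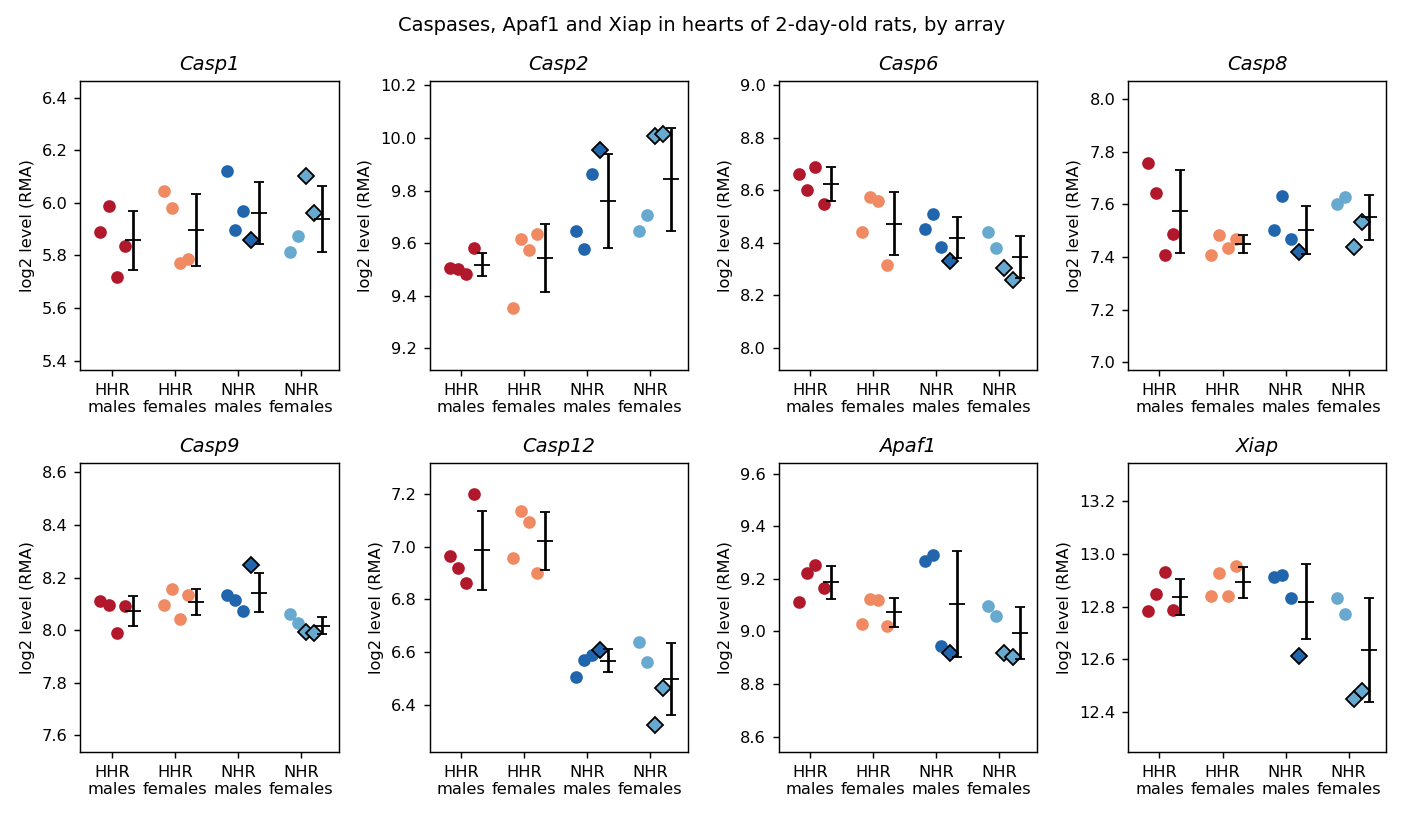
Log2 level (RMA) of each of the 8 genes on every array, by group, with the replicates of a group in the order of their numbers and the 3 high-scoring NHR arrays as outlined diamonds; bars give the group mean and SD (n = 4). The HHR points of Casp12 all lie above its NHR points, while the diamonds are the highest points of Casp2 and the lowest of Xiap and Apaf1.

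Casp12 differed most among the members. It is an inflammatory-type caspase of rodents, tied to stress of the endoplasmic reticulum. On every array its level lay below the array median, nearest in HHR male 4 (7.20 against 7.22), and no background signal was given. Its log2 levels were 6.96, 6.92, 6.86 and 7.20 in HHR males and 6.96, 7.14, 7.09 and 6.90 in HHR females, against 6.51, 6.57, 6.59 and 6.61 in NHR males and 6.64, 6.56, 6.32 and 6.46 in NHR females. The strains did not overlap, with 8 of 8 HHR arrays above NHR, a pattern found in 1.95% of probe sets (2.20% had it the other way round, 4.15% in all). The means were 7.00 ± 0.12 in HHR and 6.53 ± 0.10 in NHR (SD, n = 8 each), so HHR was 0.47 higher on the log2 scale (SE 0.06, 1.39-fold, limma adjusted p = 3.9e-05). The rise passed the test within each sex, at 0.42 in males (SE 0.08, limma adjusted p = 0.00802) and 0.53 in females (SE 0.08, adjusted p = 9.2e-04). Without the high-scoring NHR arrays it was 0.43 (limma adjusted p = 5.0e-04), and without the low-scoring ones 0.51 (adjusted p = 1.3e-04).

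Casp1, which matures interleukin 1 beta inside inflammasomes, was not called. Its log2 levels ran from 5.72 to 6.05 in HHR (median 5.86) and from 5.81 to 6.12 in NHR (median 5.93), and the strains overlapped. The difference was -0.07, with a 95% confidence interval of -0.20 to 0.05 (limma adjusted p = 0.428). In one alternative, 7 of the 8 members passed a filter that asks 4 arrays or more to exceed the 40th percentile, and Casp1 did not.

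Casp1, Casp4 and Casp12 follow each other along chromosome 8 in RefSeq, with only LOC-numbered loci between them. Casp4, the rat counterpart of mouse caspase 11 and outside the 8 members, ranged from 6.81 to 7.31 in HHR and from 6.43 to 7.30 in NHR (difference 0.16, SE 0.11, limma adjusted p = 0.308; 0.03 without the high-scoring NHR arrays, and 0.32 without the low-scoring ones, adjusted p = 0.0435). Within each array, the log2 ratio of Casp12 to Casp1 averaged 1.13 ± 0.16 in HHR and 0.58 ± 0.20 in NHR (SD, n = 8 each), a difference of 0.55 with 8 of 8 HHR arrays above every NHR array. The ratio of Casp12 to Casp4 averaged 0.04 ± 0.18 in HHR and -0.27 ± 0.26 in NHR, a difference of 0.31. Both ratios were chosen after the levels were seen, and they restate those levels. A test that regrouped the strain labels within each sex was run on both, and no support is drawn from it. Of the genes flanking the row, Pdgfd, a platelet-derived growth factor, fell by 0.22 (SE 0.06, limma adjusted p = 0.0185) with 8 of 8 HHR arrays below every NHR array, whereas Gria4, Msantd4 and Ddi1 did not pass. All HHR arrays lay below every NHR array in 2.20% of probe sets.

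**Figure D2:**
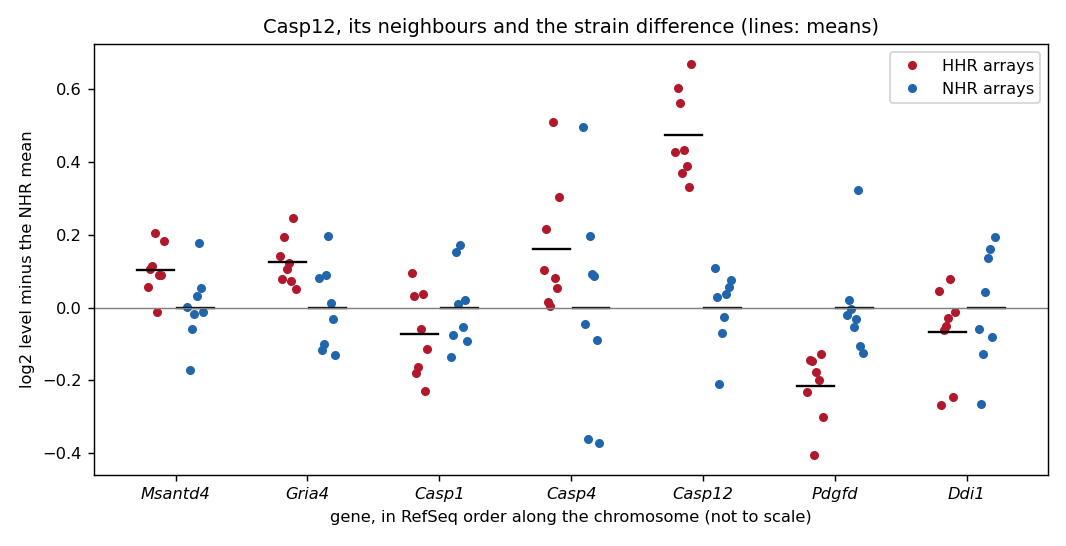
Log2 level of each array minus the NHR mean of that gene, for Casp12 and its neighbours in RefSeq order (not to scale), with HHR left of NHR and lines at the means. Casp12 is raised by 0.47 in HHR, while Casp1 and Casp4 on one side overlap between the strains and Pdgfd on the other is lower by 0.22.

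Casp2, the initiator that the PIDDosome activates after DNA damage and centrosome gain, was lower in HHR. Its log2 levels were 9.51, 9.50, 9.48 and 9.58 in HHR males and 9.35, 9.62, 9.57 and 9.63 in HHR females, against 9.65, 9.58, 9.86 and 9.95 in NHR males and 9.65, 9.71, 10.01 and 10.02 in NHR females. The 3 highest values were those of the high-scoring NHR arrays (9.95 to 10.02), and 5 of 8 HHR arrays lay below the lowest NHR array. Casp2 fell by 0.27 (SE 0.07, limma adjusted p = 0.0104), with 9.53 ± 0.09 in HHR and 9.80 ± 0.18 in NHR (SD, n = 8 each). Without the high-scoring NHR arrays the difference was -0.15 and did not pass (limma adjusted p = 0.105), whereas without the low-scoring ones it was -0.43 (adjusted p = 1.2e-04). Within males it was -0.24 and within females -0.30, neither past the test (limma adjusted p = 0.177 and 0.0563).

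Casp6, an executioner caspase best known for cutting nuclear lamin A, was higher in HHR. Its levels were 8.66, 8.60, 8.69 and 8.55 in HHR males and 8.44, 8.57, 8.56 and 8.31 in HHR females, against 8.45, 8.51, 8.38 and 8.33 in NHR males and 8.44, 8.38, 8.30 and 8.26 in NHR females. In males the 4 HHR arrays lay above the 4 NHR arrays, but how many probe sets show such a split in males was not counted. In females, HHR female 4, at 8.31, lay within the NHR range, and HHR female 1 and NHR female 1 both read 8.44. The means were 8.55 ± 0.12 in HHR and 8.38 ± 0.08 in NHR (SD, n = 8 each), a log2 difference of 0.17 (SE 0.05, limma adjusted p = 0.0212). Within males the difference was 0.21 and within females 0.13, neither past the test (limma adjusted p = 0.10 and 0.256). Without the high-scoring NHR arrays it was 0.12 and did not pass (limma adjusted p = 0.155), and without the low-scoring ones 0.23 (adjusted p = 0.00850).

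Apaf1 and Casp9, the core of the apoptosome, did not pass over all arrays. Apaf1 measured 9.11, 9.22, 9.25 and 9.16 in HHR males and 9.03, 9.12, 9.12 and 9.02 in HHR females, against 9.27, 9.29, 8.94 and 8.92 in NHR males and 9.10, 9.06, 8.92 and 8.90 in NHR females. The NHR values spread around the HHR ones (SD 0.16 in NHR and 0.08 in HHR), with the high-scoring NHR arrays lowest at 8.90 to 8.92. The difference was 0.08 (95% confidence interval -0.04 to 0.20, limma adjusted p = 0.367) and 0.01 without those arrays. Without the low-scoring NHR arrays it was 0.21 and passed (limma adjusted p = 0.00434), so the call for Apaf1 turns on which NHR arrays are kept. Casp9, the initiator that Apaf1 activates, ran from 7.99 to 8.16 in HHR and from 7.99 to 8.25 in NHR, and its difference of 0.01 had the narrowest interval of the members, from -0.07 to 0.09 (limma adjusted p = 0.886).

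Casp8, the initiator at death receptors, also overlapped between the strains. It ran from 7.41 to 7.76 in HHR (median 7.48) and from 7.42 to 7.63 in NHR (median 7.52). The difference was -0.02, with an interval of -0.13 to 0.09 (limma adjusted p = 0.868). Among alternative settings its sign turned in 6 of 28 and that of Casp9 in 1 of 28, never with a call.

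Xiap, the inhibitor, was called on neither of its 2 probe sets over all arrays. The brighter, which the annotation ties to a GenBank entry and not to the RefSeq transcript, so that it may measure another transcript, read 12.78, 12.85, 12.93 and 12.79 in HHR males and 12.84, 12.93, 12.84 and 12.96 in HHR females, against 12.91, 12.92, 12.83 and 12.61 in NHR males and 12.83, 12.77, 12.45 and 12.48 in NHR females. The 3 lowest values were those of the high-scoring NHR arrays (12.45 to 12.61). Its difference of 0.14 did not pass (SE 0.06, limma adjusted p = 0.134) and was 0.02 without those arrays. Without the low-scoring NHR arrays it was 0.27 and passed (limma adjusted p = 0.00231). The dimmer probe set, tied to the RefSeq transcript of Xiap, ran from 8.13 to 8.39 in HHR and from 7.79 to 8.38 in NHR, with a difference of 0.08 (SE 0.07, limma adjusted p = 0.475).

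**Figure D3:**
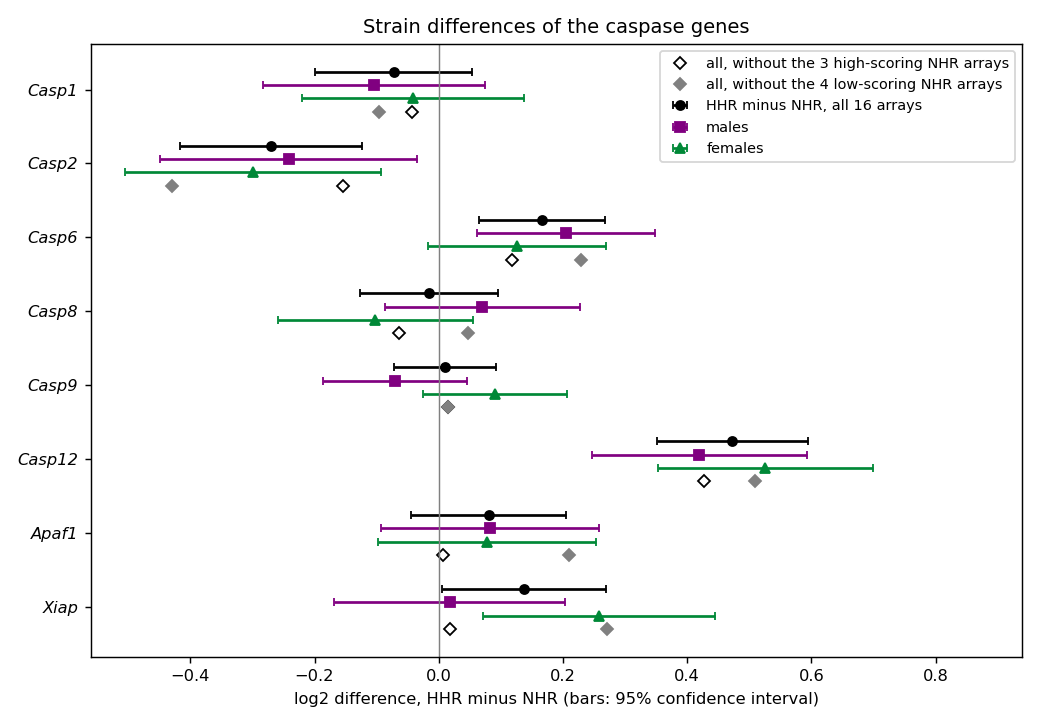
Log2 difference of HHR minus NHR for each gene over all 16 arrays and within each sex, with 95% confidence intervals, and as diamonds without the 3 high-scoring (open) or the 4 low-scoring NHR arrays (grey). Casp12 (0.47), Casp6 (0.17) and Casp2 (-0.27) passed the adjusted test over all arrays; the unadjusted interval of Xiap (0.01 to 0.27) also clears 0 without passing, and the open and grey diamonds lie at 0.43 and 0.51 for Casp12 but at -0.15 and -0.43 for Casp2.

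With 4 arrays a group, Casp12 was the single member called for strain within males (4.02% of probe sets were called, 2.03% higher and 1.98% lower) and within females (12.0%, with 5.78% higher and 6.21% lower). The count in females turned on single arrays: without NHR female 1, NHR female 2 or NHR male 4 it was 3, and without NHR male 2 it was 2, the genes gained being Casp2 and Xiap or Casp2 alone. Xiap was gained on its brighter probe set, while the RefSeq-matched one differed by 0.06 in females (limma adjusted p = 0.761). Without the low-scoring NHR arrays 4 members were called in males and 3 in females, but the share of all probe sets called within each sex was not counted there. For the difference of the strain effect between the sexes, limma called 0 members and 0 of 27342 probe sets (0%). At an unadjusted p below 0.05 that comparison had 1390 probe sets and 0 members. The lowest member p was that of Casp9 (0.0553, adjusted 0.973 by limma), whose strain difference was -0.07 in males and 0.09 in females. For males against females limma called 0 members, beside 0.0110% of probe sets (0.00366% higher and 0.00731% lower in males). At an unadjusted p below 0.05 there were 1749 probe sets and 1 member, Casp6, which was 0.11 higher in males (95% confidence interval 0.01 to 0.21, limma adjusted p = 0.764).

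Other genes of the caspase pathway were taken from 7 lists. The counts of each list stand beside 9.64% of all probe sets called higher and 11.0% called lower. Of 59 listed genes 45 had a probe set, and 8 of these were higher in HHR, 5 lower and 32 did not pass, which is 28.9% called, beside 23.1% of the 14324 named genes taken in the same way. Their median difference was 0.05, and without the high-scoring NHR arrays 4 of them were higher and 3 lower, against 14 and 6 without the low-scoring ones. Over all probe sets the share called moved the same way, at 14.6% without the high-scoring and 28.3% without the low-scoring NHR arrays. Casp4, Casp8ap2, which binds Casp8, and Cflar made up the measured part of the list of other caspases, with 0 called and a median of 0.14. At an unadjusted p below 0.05 that list had 1 gene higher, Casp8ap2 (0.14, limma adjusted p = 0.0671).

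Among 11 genes of death receptor signalling 1 was higher, 1 lower and 9 did not pass (median 0.05). Tnfsf10, which encodes the death ligand TRAIL, ranged from 6.33 to 6.89 in HHR and from 6.51 to 7.21 in NHR. It fell by 0.41 (SE 0.10, limma adjusted p = 0.00529), and by 0.52 without the high-scoring NHR arrays. Without the low-scoring ones the difference was -0.29 and did not pass (adjusted p = 0.0718). Fadd, the adaptor that brings Casp8 to the receptors, differed by 0.21 (SE 0.07, limma adjusted p = 0.0455). That call was lost in 13 of 28 alternatives (adjusted p up to 0.208): without the high-scoring NHR arrays, or without any one of HHR females 1, 3 and 4, HHR males 1, 2 and 3, the 4 NHR females, and NHR males 3 and 4. Without the low-scoring NHR arrays the difference was 0.33. Cflar, the inhibitor of Casp8 and its neighbour in the genome, differed by 0.01 (limma adjusted p = 0.939), and its sign turned in 7 of 28 alternatives.

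Of 6 apoptosome and mitochondrial factors 3 were higher in HHR, 0 lower and 3 did not pass (median 0.15), beside 23.1% of all named genes called in either direction. Nothing particular to the list is read from so few genes. Aifm1, a mitochondrial flavoprotein that can move to the nucleus in cell death, ranged from 12.01 to 12.26 in HHR and from 11.37 to 11.96 in NHR, with no overlap. The strains did not overlap in 4.15% of all probe sets. Aifm1 rose by 0.42 (SE 0.06, limma adjusted p = 2.3e-04), and by 0.33 without the high-scoring NHR arrays. Diablo, whose protein leaves mitochondria and frees caspases from Xiap, was higher on both of its probe sets, by 0.25 (SE 0.07, limma adjusted p = 0.0198) and 0.18 (SE 0.06, adjusted p = 0.0476). With the high-scoring NHR arrays left out the brighter missed the test at 0.14 (adjusted p = 0.183), and with the low-scoring ones left out it was 0.42. Apip, an Apaf1-interacting protein and an enzyme of methionine salvage, differed by 0.21 (SE 0.07, limma adjusted p = 0.0299). The Apip call was lost without any of HHR females 2 and 3, HHR males 1 and 3, NHR females 3 and 4, or NHR males 1, 3 and 4, and without the high-scoring NHR arrays (adjusted p up to 0.233). Cytochrome c itself, Cycs, differed by 0.09 and 0.10 on its probe sets and did not pass (limma adjusted p = 0.141 and 0.125).

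Cradd, the adaptor that links Casp2 to the PIDDosome, moved opposite to Casp2. It ranged from 10.01 to 10.40 in HHR and from 9.33 to 10.10 in NHR, with 6 of 8 HHR arrays above every NHR array. It rose by 0.48 (SE 0.10, limma adjusted p = 0.00331), and by 0.29 without the high-scoring (adjusted p = 0.0203) and 0.73 without the low-scoring NHR arrays. It was the only one of the 2 listed PIDDosome genes with a probe set.

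Of 9 inflammasome genes 0 were higher, 1 lower and 8 did not pass (median -0.09). Pycard, the adaptor ASC that recruits Casp1, ranged from 7.06 to 7.24 in HHR and from 7.07 to 7.70 in NHR. It fell by 0.24 (SE 0.07, limma adjusted p = 0.0188), and with the high-scoring NHR arrays left out the difference was -0.14 (adjusted p = 0.123). Il1b and Il18, the cytokines that Casp1 matures, differed by -0.12 and 0.10 (limma adjusted p = 0.181 and 0.237). Of the inhibitor list 3 genes were measured, and Gspt1 was higher by 0.52 (SE 0.13, limma adjusted p = 0.00808), with no overlap (12.00 to 12.19 in HHR, 10.95 to 11.99 in NHR), by 0.23 without the high-scoring NHR arrays (adjusted p = 0.0128) and by 0.84 without the low-scoring ones. Such a lack of overlap was found in 4.15% of all probe sets. Gspt1 is chiefly a translation termination factor, listed because a processed form of it binds inhibitors of apoptosis. Birc2 and Birc3, relatives of Xiap, differed by -0.16 and -0.01 (limma adjusted p = 0.0652 and 0.924).

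Of 12 caspase substrates 2 were higher, 3 lower and 7 did not pass (median 0.00). Acin1, a chromatin and splicing protein, fell by 0.30 (SE 0.05, limma adjusted p = 3.2e-04), with no overlap (9.89 to 10.05 in HHR, 10.09 to 10.43 in NHR). Sptan1, the membrane skeleton protein alpha spectrin, fell by 0.26 (SE 0.04, limma adjusted p = 2.5e-04), also with no overlap (10.92 to 11.04 in HHR, 11.16 to 11.32 in NHR). In 4.15% of all probe sets the strains did not overlap. Dnm1l, which divides mitochondria, rose by 0.41 (SE 0.08, limma adjusted p = 0.00174), and by 0.27 without the high-scoring NHR arrays. Dffb, the nuclease that cuts DNA in apoptosis, was higher by 0.18 (limma adjusted p = 0.0217) and not called without those arrays (0.10, adjusted p = 0.122), against 0.28 without the low-scoring ones. Lmnb1, a nuclear lamin, fell by 0.24 (limma adjusted p = 0.0220), a call lost without NHR male 3 or without the high-scoring arrays (-0.22, adjusted p = 0.0774). Lmna, the lamin that Casp6 cuts, differed by -0.10 (limma adjusted p = 0.122).

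**Figure D4:**
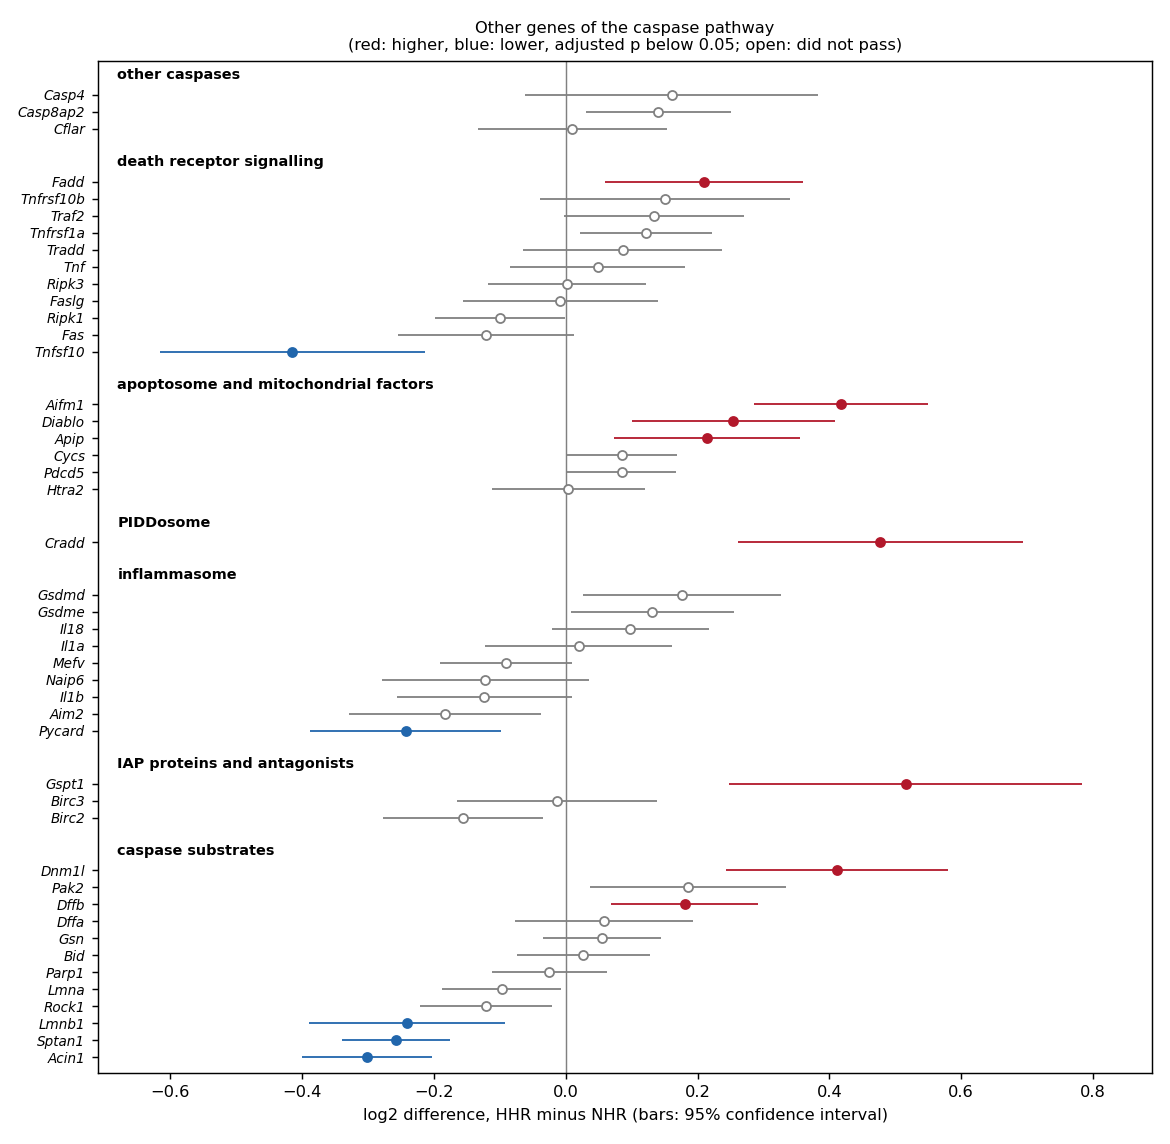
Log2 difference of HHR minus NHR with 95% confidence interval for the 45 measured pathway genes, by list, with red for genes called higher, blue for genes called lower and open circles for genes that did not pass. The 8 higher genes reach from 0.18 (Dffb) to 0.52 (Gspt1) and the 5 lower ones from -0.24 (Lmnb1 and Pycard) to -0.41 (Tnfsf10).

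Marker genes of the cell types in a heart were tested in the same fit. Their counts stand beside 9.64% of all probe sets called higher and 11.0% called lower. Of the 14324 named genes 23.1% were called in either direction. Among 18 leukocyte markers, from the cells in which Casp1 is best known, 1 was higher, 1 lower and 16 did not pass. The log2 of their summed level ran from 11.53 to 11.88 in HHR males and 11.59 to 11.70 in HHR females, against 11.66 to 11.77 in NHR males and 11.57 to 11.70 in NHR females. Of 10 cardiomyocyte markers 6 were lower and 0 higher, with summed levels of 16.62 to 16.67 in HHR males and 16.65 to 16.71 in HHR females, against 16.69 to 16.78 in NHR males and 16.69 to 16.80 in NHR females. Of 8 fibroblast markers 3 were higher and 0 lower, with summed levels of 14.47 to 14.69 in HHR males and 14.48 to 14.70 in HHR females, against 14.31 to 14.57 in NHR males and 14.45 to 14.55 in NHR females. Of 6 endothelial markers 4 were lower and 0 higher, with summed levels of 13.06 to 13.20 in HHR and 13.20 to 13.35 in NHR. Of 6 erythroid markers 2 were higher and 2 lower, with summed levels of 12.71 to 13.23 in HHR and 12.29 to 13.01 in NHR. No marker was listed at 0, and the dimmest was the neutrophil gene S100a8 at 3.97. The part of these cells in the differences of Casp12, Casp2 and Casp6 was not tested.

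Neighbouring genes were looked up for every member, taking the nearest 2 on each side with a probe set of their own. Of 29 such genes outside the members 3 were higher in HHR and 4 lower, which is 24.1% called, beside 23.1% of all named genes. Casp2 lay between Gstk1, a mitochondrial glutathione transferase that rose by 0.49 (SE 0.05, limma adjusted p = 1.6e-05, 8 of 8 HHR arrays above every NHR array), and Clcn1, a chloride channel gene that fell by 0.27 (SE 0.04, adjusted p = 6.0e-04, 8 of 8 below). Over all probe sets 1.95% had every HHR array above NHR and 2.20% every HHR array below. Beside Casp6, Pla2g12a fell by 0.32 (limma adjusted p = 0.00227). Around Apaf1, Actr6 rose by 0.42, Slc25a3, the mitochondrial phosphate carrier, by 0.20, and Bltp3b fell by 0.38 (limma adjusted p = 0.00611, 0.00499 and 1.2e-05). None of the neighbours of Casp8, Casp9 or Xiap passed.

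Once each group's mean was removed, the genes whose levels followed Casp12 most closely over the 16 arrays, out of 14323 compared, were Or5bh3, Wnk4, Upk1b, Lyve1 and Rnh1, with Pearson's r from 0.83 (Rnh1) to 0.87 (Or5bh3). Over the 13 arrays without the high-scoring NHR arrays r lay between 0.75 (Rnh1) and 0.93 (Or5bh3). These are the extremes of a search over many genes on few arrays and describe likeness only. Lyve1, a receptor of lymphatic endothelium and resident macrophages, was itself higher in HHR by 0.41 (limma adjusted p = 8.4e-04), and Rnh1, the ribonuclease inhibitor, by 0.21 (adjusted p = 0.00477).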

How the data were processed

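RNA of 16 hearts was measured on 16 arrays, 1 per animal. The authors deposited log2 values; the submitters' processing notes name RMA and limma without versions or filters. RMA subtracts background, brings arrays to a common distribution and gives 1 value per probe set. Arrays have no read depth, so precision rests on their number.

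From these values group means were fitted with limma 3.58.1 in R 4.3.3 to all 27342 probe sets and 16 arrays, with eBayes moderation, for 5 contrasts, and p-values were adjusted by Benjamini-Hochberg across the whole table at 0.05. SE are moderated. Groups and replicate numbers came from the titles. The platform annotation named 15097 probe sets by a single gene, 323 by several and 11922 by none. The RefSeq gene table of GRCr8 was used for gene order only. The fit was tested on simulated data. Members and lists were chosen with earlier results of these data known. Named were all members, up to 4 called genes a list beside Cflar, 2 neighbours a side, and the 5 genes most like Casp12; other genes were named after their values were seen. Alternatives covered a dim filter (above the 40th percentile on 4 arrays), normalization, moderation, weights, a replicate block, sex, probe sets, the threshold and left-out arrays.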

Additional observations from a re-analysis of the deposited data

Results flagged for a closer look

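In HHR males, Casp9 on replicate 3 read 7.99, below the other 3 arrays, whose nearest value was 8.09. The gap took up 0.856 of the group's range, above Dixon's 95% critical value for 4 samples. It was the only such value in 36 groups of members and probe sets, and chance alone gives about 1 in 20.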

How the results depend on the processing

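Casp12 kept its direction and its call in all 28 alternatives (0.43 to 0.51, limma adjusted p up to 5.0e-04), and Casp1, Casp8 and Casp9 passed in none of theirs. Without the 4 low-scoring NHR arrays, an alternative chosen after seeing the data, Apaf1 (0.21, adjusted p = 0.00434) and Xiap (0.27, adjusted p = 0.00231) passed, as in none of their other alternatives, so 4 members were called higher, 3 in females and 4 in males, with 14 pathway genes higher. The share of all probe sets called for strain rose there too, to 28.3% from 20.7% over all arrays. The shares within each sex were not counted for that setting. The 3 high-scoring NHR arrays were also picked by their scores in these data. Without them Casp2 was -0.15 (limma adjusted p = 0.105) and Casp6 0.12 (adjusted p = 0.155), so 1 member was called higher and 0 lower. Of the pathway genes 4 were then higher and 3 lower, beside 14.6% of all probe sets called. The cause was not tested. At an adjusted p below 0.01 the counts were 1 and 0 members and 4 and 3 pathway genes, beside 10.6% of all probe sets called. Without single arrays Casp2 ran from -0.30 to -0.24 and Casp6 from 0.15 to 0.19, both called throughout (adjusted p up to 0.0252 and 0.0487), with 2 members higher and 1 lower each time, and 6 to 9 pathway genes higher and 4 to 6 lower. In females, where 1 member was called, 3 were with the dim filter and 2 with single-symbol probe sets, trend and robust moderation or the replicate block; without single arrays the count ran from 1 to 3. The genes gained were Casp2 and Xiap on its brighter probe set (3 members without NHR female 1, NHR female 2 or NHR male 4, and 2 without NHR male 2). The interaction and sex counts stayed at 0 in all 28 alternatives, and the males count at 1 in all but the one named. The share of all probe sets called ran from 10.6% to 33.5%. Replicate numbers were not taken to pair the arrays. The deviations of same-numbered HHR and NHR arrays of a sex correlated above 0.1 in 2 of 8 pairs (-0.11 to 0.30). Over any 2 groups they did so in 11 of 24 (up to 0.37), not in every pair. Between NHR males and NHR females, numbers 1, 2, 3 and 4 gave 0.37, 0.19, -0.11 and 0.30. Whether same-numbered NHR animals shared a litter or batch was not tested, so their independence is assumed. The replicate block moved no other count or call of the members. No background signal was given, which limits what dim genes such as Casp1 and Casp12 can show. Casp12 passed the dim filter but lay below the array median on every array.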
